A study of Homo sapiens with 3 samples.

Results

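This account concerns the ETS1 peaks that lay in exons at a distance from transcription start sites (TSSs). They were the peaks on chromosomes 1 to 22 and X whose midpoint was over 1500 bp from any annotated TSS and inside an exon, coding or untranslated, of a canonical protein-coding transcript. The midpoint could lie in no first intron of such a transcript, and the peak could overlap none of the 1900 regions that the authors ranked highest by H3K27Ac signal, which include their super-enhancers. The rule selected 328 of the 26970 peaks in the list, of which 26958 were on these chromosomes. Neither sequence, width nor the coding or untranslated state of the exon was used to choose them.

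The ETS1-bound loci were mapped by ChIP-Seq (chromatin immunoprecipitation with sequencing) in SCC25, an established line of tongue squamous carcinoma cells that served as a mesenchymal model of head and neck carcinoma. Untreated cells gave 3 ChIP samples, of which 2 used the C20 and 1 the 501A polyclonal antibody against ETS1, and there was no comparison group. Only their consensus was analysed here, as 1 list of peak positions on hg19 without summits, scores, read counts or any value of a single sample. The intervals below are 95% intervals that cover the counting of peaks only, since no spread between replicates and no depth per sample could be computed, and peaks of 1 genome are not replicate experiments.

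ETS1 is the founding member of the ETS family of transcription factors, which bind DNA through a winged helix-turn-helix domain at sites built around GGAA. It often binds beside AP-1, the dimer of FOS and JUN proteins, whose site differs from that of ETS factors. Exons are read by the ribosome or by RNA-binding proteins once transcribed, but in chromatin they are DNA like any other and can also carry binding sites for transcription factors. Coding exons are short and rich in G and C, whereas the last exon with its 3' untranslated region is often long and richer in A and T.

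The sites searched were the ETS core, AGGAAA or AGGAAG, and the AP-1 site, TGAGTCA or TGACTCA, on both strands of the 200 bp centred on each midpoint. The following 30-base runs of GRCh37 surround the core nearest the midpoint, in capitals, in 6 of the first 7 coding-exon peaks of the list that held one. They are shown 5' to 3' on the strand of the core because they let the position of the letters be read against the exon.
MERTK, chr2:112732858-112732887, plus strand: tcgtttaggtcaAGGAAGctgatccgctga
TPD52L2, chr20:62505016-62505045, plus strand: tgcaggtggaagAGGAAAttgtcactctgc
P2RX7, chr12:121622345-121622374, plus strand: tcagagctgttcAGGAAGctggtcctgtcc
AHSG, chr3:186334946-186334975, minus strand: ctgctcggagagAGGAAAccaggatgtggg
NWD1, chr19:16875848-16875877, minus strand: agatgccccggcAGGAAAtccagctcatgc
MEF2B, chr19:19256699-19256728, plus strand: ggggaaggtcttAGGAAAgtcgccggggcc
In MERTK, a receptor tyrosine kinase that takes part in the clearance of dying cells, the core was 6 bases from the midpoint and within the exon. It was also within the exon in TPD52L2, P2RX7, NWD1 and MEF2B. P2RX7 is an ion channel opened by extracellular ATP and MEF2B a MADS-box transcription factor. In AHSG, which encodes the plasma protein fetuin-A, the core lay in the intron beside the exon that held the midpoint.

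The same runs are shown for 3 of the first 4 peaks in 3' untranslated regions that held a core.
DPF3, chr14:73082574-73082603, plus strand: aaaaatgcctacAGGAAAcaggatttccac
FNBP1, chr9:132651058-132651087, minus strand: cttgtggaaaccAGGAAAttgctcctctca
TRERF1, chr6:42194615-42194644, plus strand: aaacaccggcccAGGAAAtcacgctgcatt
All 3 cores lay in untranslated exon sequence. DPF3 is a subunit of the BAF chromatin remodelling complex.

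Among the first 4 peaks whose 200 bp held both kinds of site were those of DPF3, AOAH and DTX3L. The core of DPF3 is printed above, and its AP-1 site and both sites of the others follow with the site in capitals.
DPF3, AP-1 site, chr14:73082442-73082471, plus strand: ttcaggggcgaTGAGTCAgtgaggggttcc
AOAH, core, chr7:36726213-36726242, plus strand: gtaagtgtgggcAGGAAGtaaaggcagtca
AOAH, AP-1 site, chr7:36726235-36726264, plus strand: ggcagtcatcaTGACTCAtgagtgagagga
DTX3L, core, chr3:122291939-122291968, plus strand: caaatgacagagAGGAAGtgagagagagag
DTX3L, AP-1 site, chr3:122292012-122292041, plus strand: ggaactaagagTGAGTCActcccatgagaa
In DPF3 and in DTX3L, a ubiquitin ligase subunit, both sites were in the 3' untranslated exon. In AOAH, an enzyme that inactivates bacterial lipopolysaccharide, both were in the intron next to the exon, and their printed runs overlap.

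Of the 26958 peaks, 12980 (48.1%) had a midpoint over 1500 bp from any TSS, and 441 of these had it in an exon. None of the 441 lay in a first intron. Of them 113 (25.6%) were left out because they overlapped an H3K27Ac region of rank 1 to 1900, 87 in a super-enhancer. Regions of lower rank were not used, so the remaining peaks may still lie in sequence marked by H3K27Ac. The 328 exon peaks were 1.22% (1.09 to 1.35) of all peaks and 2.53% of those away from TSSs. By the same distance and region rules, 2162 peaks lay in later introns, that is introns other than the first, and 931 in first introns.

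Coding sequence held 173 of the 328 midpoints (52.7%, 47.3 to 58.1) and 3' untranslated regions held 155. None lay in a 5' untranslated region, but only 0.273 Mb of such sequence was eligible, so that by the limit of 3 counts the absence allows a density of up to 11.0 per Mb. The last exon held 209 of the peaks and internal exons 116. Of the others, 2 were in genes with a single exon and 1 was in a first exon. The coding peaks were mostly internal (113 of 173), and 57 lay in the coding part of the last exon. The peaks of 3' untranslated regions lay in the last exon in 152 of 155 cases, and 64 of the 155 were within 1000 bp of the annotated transcript end.

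The peaks were wider than many of the exons that held them. The exon had a median length of 302 bp for coding peaks and 2846 bp for peaks of 3' untranslated regions. The exonic share of a peak, counted over canonical transcripts, had a median of 48.7% in the coding peaks and 100% in the others. Only 21 of the 173 coding peaks were wholly exonic, against 92 of the 155 in 3' untranslated regions. A coding-exon peak was thus a peak centred on an exon, and most of them also covered intron sequence. Another gene on the opposite strand overlapped the midpoint in 52 of the 328 peaks, and another on the same strand did in 15.

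**Figure D1:**
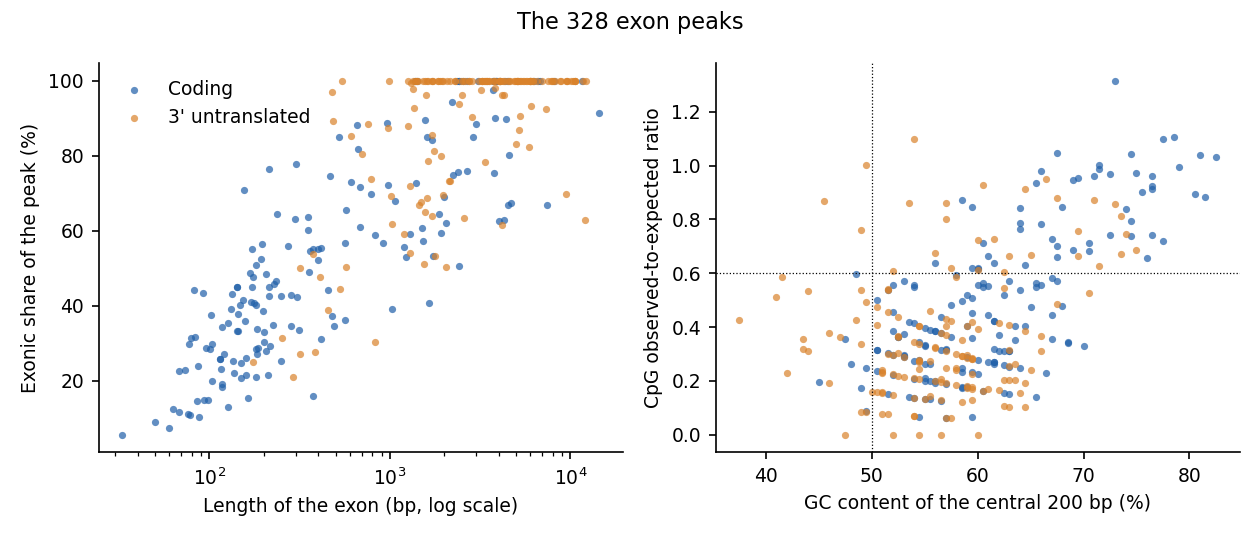
Each point is 1 of the 328 exon peaks, blue in coding sequence and orange in 3' untranslated regions. The left panel plots the exonic share of the peak (%) against exon length (bp, log scale), and the right panel the CpG observed-to-expected ratio against the GC content (%) of the central 200 bp, with dotted lines at 50% and 0.6. Coding peaks in short exons were mostly intronic in extent, and the upper right quadrant of the right panel holds the 77 CpG-rich peaks.

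Exon peaks were denser than peaks of later introns. There were 7.29 peaks per Mb (6.52 to 8.12) in 45.01 Mb of eligible exon sequence and 3.22 per Mb (3.08 to 3.36) in 672 Mb of later introns. The ratio was 2.27 (2.01 to 2.55, exact conditional test of 2 Poisson rates, two-sided, p = 7.58e-36, adjusted p = 8.34e-35 over the 11 tests of the design). Coding sequence had 9.56 per Mb (8.19 to 11.1) and 3' untranslated sequence 5.82 per Mb (4.94 to 6.81), a ratio of 1.64 (1.32 to 2.06, same test, exact p = 7.98e-06, adjusted exact p = 2.19e-05). Intron sequence within 250 bp of an exon had 4.31 per Mb, below that of exons, and intron sequence over 5000 bp from one had 2.86 per Mb. Among exon lengths, exons over 300 and up to 1000 bp long had the highest density (13.9 per Mb) and exons over 3000 bp the lowest (5.29 per Mb).

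**Figure D2:**
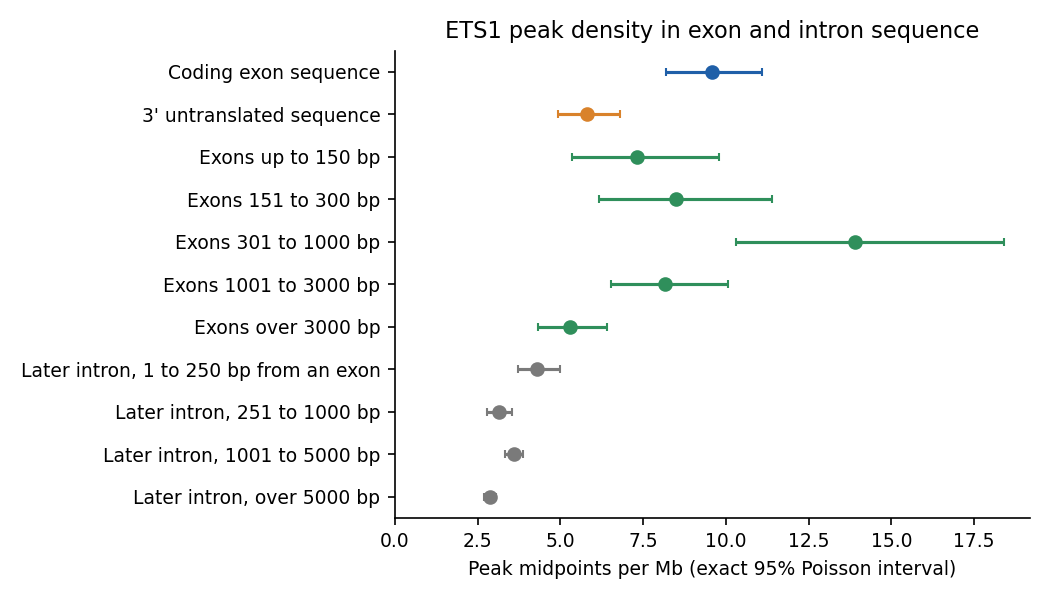
Peak midpoints per Mb of eligible sequence, with exact 95% Poisson intervals, in exon sequence by kind (blue, orange) and by exon length (green) and in later introns by distance from the nearest exon (grey). Every exon class lies above the 4 intron zones, though the interval of exons over 3000 bp (4.31 to 6.41) meets that of the nearest zone (3.71 to 4.97).

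These differences moved with base composition. Of the eligible later-intron sequence 69.0% had a GC content under 45% in the surrounding 200 bp, and only 3.70% of the later-intron peaks lay there. The corresponding share of sequence was 43.8% in coding exons, which had 0 of their 173 peaks in it, and 65.03% in 3' untranslated regions, which had 8 of 155. At 55 to 60% GC there were 20.8 peaks per Mb in coding sequence, 27.2 in 3' untranslated sequence and 21.7 in later introns. At the later-intron density of each GC class, the coding and 3' untranslated sequence would have held 298 peaks, and it held 328 (ratio 1.101, 0.985 to 1.23). The ratio was 0.982 (0.841 to 1.14) for coding sequence alone and 1.27 (1.08 to 1.49) for 3' untranslated sequence, with intervals for the count of exon peaks only. Restricted to sequence of 50 to 60% GC, a choice made after the values were seen, the ratio of exons to later introns was 1.39 (1.17 to 1.63, exact p = 0.00015), and that of coding to 3' untranslated sequence turned to 0.869 (0.630 to 1.19, exact p = 0.391). GC content still differed within that range. Later introns had 69.3 Mb at 50 to 55% and 29.2 Mb at 55 to 60%, with 9.86 and 21.7 peaks per Mb. In the same classes coding sequence had 2.16 and 2.11 Mb, and 3' untranslated sequence 2.79 and 1.72 Mb. The ratio of 1.39 was not adjusted for this.

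**Figure D3:**
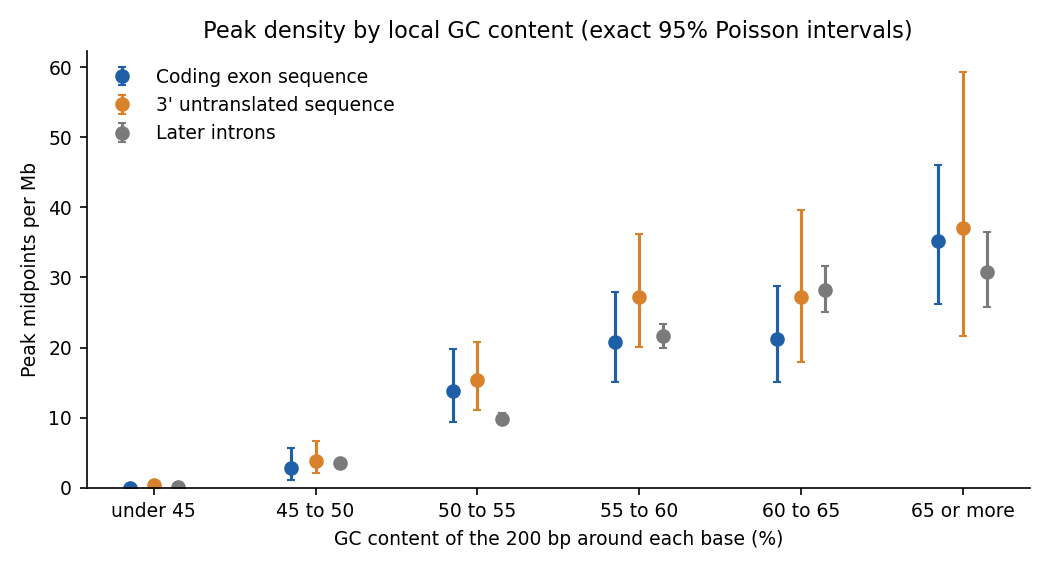
Peak midpoints per Mb (exact 95% Poisson intervals) against the GC content (%) of the 200 bp around each base, for coding exon sequence (blue), 3' untranslated sequence (orange) and later introns (grey). All 3 kinds of sequence go from under 1 per Mb below 45% GC to over 30 per Mb at 65% GC or more.

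The ETS core was found in 144 of the 328 exon peaks (43.9%, 38.6 to 49.3), a share near the 43.96% of all 26958 peaks in windows of the same length. That total joins unlike classes, with the core in 33.8% of peaks within 500 bp of a TSS and 55.7% of first-intron peaks. Later-intron peaks had it more often than exon peaks, in 53.4% (51.3 to 55.5). The odds ratio for exon against later-intron peaks was 0.684 (0.541 to 0.864, Fisher's exact test, two-sided, p = 0.00164, adjusted p = 0.00258). This call was lost at 50 to 60% GC (odds ratio 0.740, exact p = 0.0807), over 5000 bp from a TSS (0.839, exact p = 0.320) and among the first 13485 peaks of the list (0.946, exact p = 0.835). Peaks in 3' untranslated regions held the core in 51.0% and coding peaks in 37.6% (odds ratio 0.579, 0.373 to 0.899, Fisher's exact test, p = 0.0191, unadjusted). Peak-free windows of the same transcripts, described below, also differed in this way, with the core in 50.4% of untranslated and 27.3% of coding windows. The 4 letters GGAA alone were in 88.1% of exon peaks and 89.9% of all peaks, and so hardly separated them.

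A window of the same transcript was available for 233 exon peaks. It was the nearest 200 bp of the same class, coding or untranslated, that overlapped no peak and lay over 1500 bp from every TSS. Of these peaks 48.1% held the core, as did 39.5% of their windows. It was in the peak alone in 58 pairs and in the window alone in 38, a ratio of 1.53 (0.997 to 2.36, exact McNemar test, two-sided, p = 0.0519, adjusted p = 0.0634), which did not pass the threshold. The result lay close to it: the ratio was 2.30 (1.33 to 4.10, exact p = 0.00186) for peaks up to 1000 bp wide and 3.14 (1.297 to 8.71, exact p = 0.00813) with 600 bp windows. With windows in the same exon alone the ratio was 1.35 (0.787 to 2.33, exact p = 0.306), and for GGAA alone 1.23 (0.673 to 2.26, exact p = 0.568). It was 1.21 (0.715 to 2.08, exact p = 0.526) for the 144 pairs in which the window of the peak, like that of the transcript, lay wholly in exon sequence of its class. In the 110 coding pairs 40.0% of peaks and 27.3% of windows held the core (ratio 2.08, 1.04 to 4.38, exact p = 0.0385, unadjusted). The transcript windows lay wholly in coding sequence, but of all 173 coding peaks only 60 (34.7%) had such a window themselves. Intron sequence thus entered this comparison on the side of the peaks alone. In the 123 untranslated pairs the shares were 55.3% and 50.4% (ratio 1.24, 0.709 to 2.19, exact p = 0.504). The 2 kinds of pair were not called different (Fisher's exact test, adjusted p = 0.324).

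No preference of the core for a strand of the gene was detected. Among coding peaks with the core on 1 strand alone it was on the coding strand in 28 of 58, against 16 of 29 same-transcript windows (odds ratio 0.758, 0.310 to 1.86, Fisher's exact test, p = 0.651). This interval leaves room for a strand preference in either direction.

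AP-1 sites stood apart from the sequence of the same transcripts. They were in 39 of the 328 exon peaks (11.9%, 8.82 to 15.8). Such sites were in 12.2% of all peaks, 3.71% of peaks within 500 bp of a TSS and 20.1% of first-intron peaks. In the 233 pairs they were in 11.2% of the peaks and 2.15% of the windows, with 26 pairs in which only the peak had a site and 5 in which only the window did (ratio 5.20, 1.96 to 17.3, exact McNemar test, p = 0.000192, adjusted p = 0.000352). The ratio was 6.67 (1.98 to 35.0, exact p = 0.000488) where the peak's window was wholly exonic. With 600 bp windows the ratio was 24.5 (6.43 to 208) in 141 pairs. There the peak's window, unlike that of the transcript, could include intron sequence. Among the first 13485 peaks of the list it was 3 (0.749 to 17.2, exact p = 0.146) and not called. Later-intron peaks held the site more often, in 21.1% (odds ratio 0.505 for exon peaks, 0.356 to 0.716, Fisher's exact test, p = 5.65e-05, adjusted p = 0.000124). That difference was not called at 50 to 60% GC (0.794, exact p = 0.310) or among the first 13485 peaks (0.743, exact p = 0.312).

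**Figure D4:**
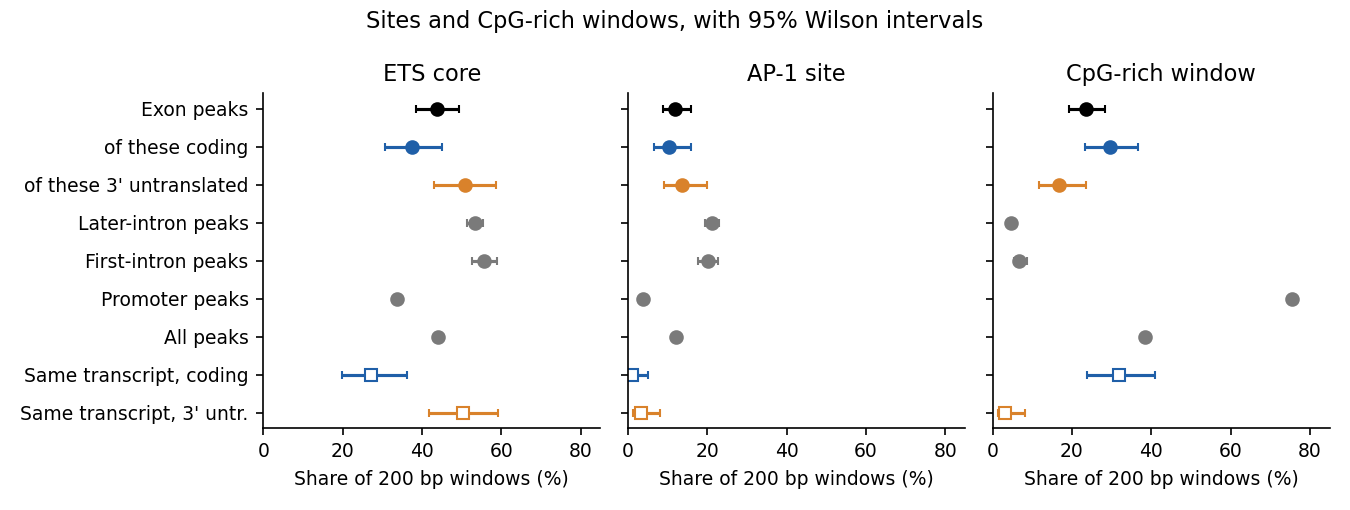
Share (%) of 200 bp windows with an ETS core, an AP-1 site or a CpG-rich composition, with 95% Wilson intervals. Filled circles are peaks (black, all 328 exon peaks; blue, coding; orange, 3' untranslated; grey, other peaks of the list, with promoter peaks within 500 bp of a TSS), and open squares are the same-transcript windows of 110 coding and 123 untranslated pairs. AP-1 sites are in 0.909% and 3.25% of those windows, and in 7.27% and 14.6% of the peaks paired with them. Of all coding and untranslated peaks, as plotted, 10.4% and 13.5% hold one.

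The place of the letters differed between coding and untranslated peaks. Of the 65 coding peaks with a core, the core nearest the midpoint was within coding sequence in 49 and in an intron in 13. Of the 18 coding peaks with an AP-1 site, it was in an intron in 11, as in AOAH above, and within coding sequence in 6. In 3' untranslated regions the nearest core was in untranslated exon sequence in 77 of 79 peaks and the nearest AP-1 site in 20 of 21.

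Along the peaks the share with a core varied little, whereas AP-1 sites were most frequent within 250 bp of the midpoint. In bins of 50 bp on both sides, the core was in 25.6% of exon peaks at 0 to 50 bp, in 32.0% at 100 to 150 bp and in 23.8% at 450 to 500 bp. In later-intron peaks it went from 33.1% in the first bin to 22.5% in the last. AP-1 sites were in 5.18% of exon peaks at 0 to 50 bp, in 8.54% at 50 to 100 bp and in 2.13% at 450 to 500 bp. In later-intron peaks the corresponding shares were 12.4%, 10.1% and 2.59%.

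**Figure D5:**
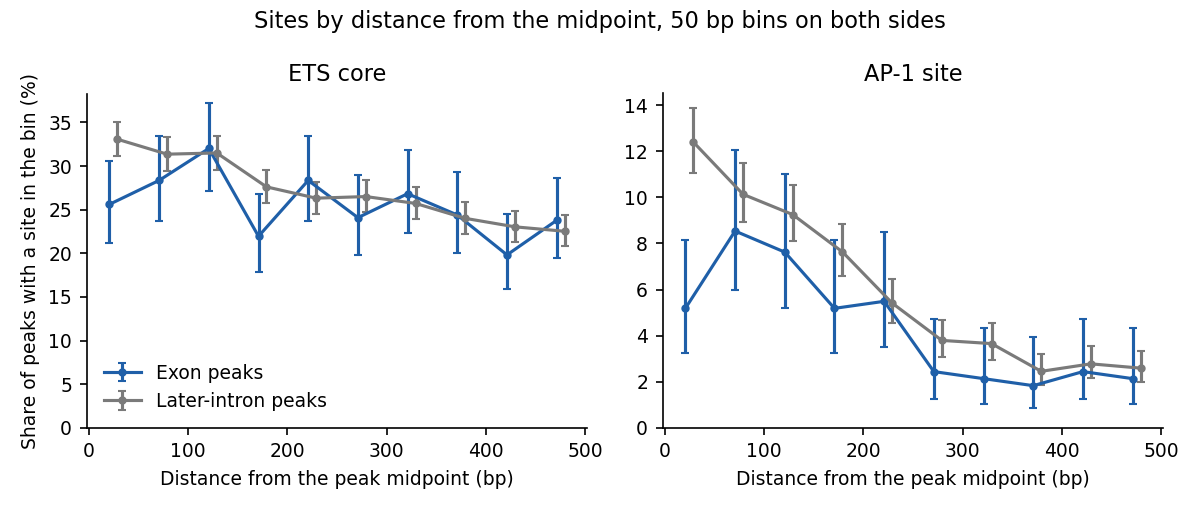
Share of peaks (%, 95% Wilson intervals) with an ETS core (left) or AP-1 site (right) in each 50 bp bin of distance from the peak midpoint (bp), both sides together, for the 328 exon peaks (blue) and 2162 later-intron peaks (grey). The AP-1 share of exon peaks is highest at 50 to 100 bp (8.54%) and near 2% beyond 250 bp, while the core share stays between 19.8% and 32.0%.

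Other sites were compared in the same windows, with p-values adjusted over the 6 motifs of each comparison. CCGGAA, a longer ETS site that holds the letters GGAA, was in 10.4% of exon peaks, 6.57% of later-intron peaks and 11.9% of all peaks. It was thus more frequent in exon than in later-intron peaks (odds ratio 1.65, 1.11 to 2.44, Fisher's exact test, adjusted p = 0.0228), the opposite of the core. The SP/KLF box GGGCGG was in 18.9% against 11.8% (odds ratio 1.74, 1.28 to 2.37, adjusted exact p = 0.00203) and in 30.6% of all peaks. The RUNX site TGTGGT was in 14.3% of exon, 17.4% of later-intron and 12.1% of all peaks, and the odds ratio for exon against later-intron peaks was 0.792 (0.570 to 1.0996, adjusted exact p = 0.216). For the TEAD site GGAATG, which overlaps the letters GGAA, the shares were 13.1%, 14.6% and 11.6%, and the odds ratio was 0.881 (0.626 to 1.24, adjusted exact p = 0.501). Against the same transcript none of these 4 motifs passed, with ratios of 2.20 for CCGGAA (0.9997 to 5.20), 1.53 for the SP/KLF box (0.827 to 2.88), 1.36 for RUNX (0.761 to 2.48) and 1.27 for TEAD (0.702 to 2.33). Both an ETS core and an AP-1 site were in 18 exon peaks and neither was in 163 (49.7%).

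CpG-rich windows, defined by a GC content over 50% and a CpG observed-to-expected ratio over 0.6 as in CpG islands, set the exon peaks apart from peaks of later introns. They made up 77 of 328 exon peaks (23.5%, 19.2 to 28.4) and 4.76% of later-intron peaks (odds ratio 6.13, 4.44 to 8.47, Fisher's exact test, p = 5.11e-25, adjusted p = 2.81e-24). The share was 38.5% of all peaks and 75.5% of peaks within 500 bp of a TSS. Exon peaks lay nearer a TSS than later-intron peaks, with median distances of 4983 and 9017 bp. Over 5000 bp from a TSS, 27 of 162 exon and 69 of 1501 later-intron peaks were CpG-rich. The odds ratio there was 4.15 (2.57 to 6.70, Fisher's exact test, p = 9.73e-08). Against the same transcript the shares were 18.9% and 16.7% (ratio 1.21, 0.679 to 2.17, exact McNemar test, p = 0.583, adjusted p = 0.641). With windows in the same exon alone the ratio was 4.50 (exact p = 0.00434), and with peak windows wholly in exon sequence it was 4 (exact p = 0.00408).

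Coding and untranslated pairs did not behave alike in this measure. In 110 coding pairs 24.5% of peaks and 31.8% of windows were CpG-rich (ratio 0.619, 0.285 to 1.296, exact McNemar test, p = 0.229). In 123 pairs of 3' untranslated regions they were 13.8% and 3.25% (ratio 5.33, 1.53 to 28.6, exact p = 0.00443). The discordant pairs favoured the peak in 13 of 34 coding and 16 of 19 untranslated pairs, and these shares differed (Fisher's exact test, p = 0.00157, adjusted p = 0.00392 over 10 comparisons added after the first values were seen). For the core and the AP-1 site the same comparison gave adjusted exact p = 0.324 and 1. The median GC content was 56.5% in the untranslated peaks of these pairs and 46.0% in their windows, and 59.0% and 58.8% in the coding ones.

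The CpG-rich exon peaks differed from the others in their sites and hosts. They held the ETS core in 22.1% against 50.6% (odds ratio 0.277, 0.153 to 0.5004, Fisher's exact test, adjusted p = 7.31e-05 over the same 10 comparisons) and an AP-1 site in 1 of 77 against 15.1% (0.0738, 0.00995 to 0.546, adjusted p = 0.00137). The host gene had a peak midpoint within 500 bp of its own TSS in 35.1% against 60.2% (0.358, 0.210 to 0.609, adjusted exact p = 0.000682). They were more often in coding sequence (66.2% against 48.6%, 2.07, 1.22 to 3.54, adjusted exact p = 0.0177). GC content is part of the definition of these peaks, and its part in the differences was not tested. Examples among them were the peaks of ZIC5 and PAX2, transcription factors of development, of ASTN1, which takes part in the migration of neurons, and of P2RY11, PRR7, BCAT2 and C19orf67.

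Exon peaks were wider than later-intron peaks. Their median width was 782.5 bp (263 to 6465 bp) against 653.5 bp, and 969 bp for all peaks. A width over 1000 bp was found in 36.6% against 24.1% (odds ratio 1.81, 1.42 to 2.32, Fisher's exact test, p = 3.64e-06, adjusted p = 1.33e-05). The difference was not called for peaks over 5000 bp from a TSS (1.17, 0.804 to 1.71, exact p = 0.426) or at 50 to 60% GC (1.28, 0.876 to 1.86, exact p = 0.223). Fewer of them stood among the first 13485 peaks of the list (31.7% against 38.5%, odds ratio 0.741, 0.578 to 0.949, adjusted exact p = 0.0286 over the 10 added comparisons). The exon peaks in that first portion held the core in 52.9% and those of the rest in 39.7% (odds ratio 1.70, 1.07 to 2.72, adjusted exact p = 0.0447). For AP-1 sites the shares were 17.3% and 9.38% (2.02, 1.03 to 3.99, adjusted exact p = 0.0559). A wide peak overlaps an H3K27Ac region more easily and is then left out of both classes. The list carries no score, and what its order stands for is not given in the sources used here.

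The 328 peaks lay in 319 genes, of which 310 had 1 and 9 had 2. In LRRK1, a protein kinase, in NRDE2, an RNA-processing factor, and in OLFML2A, an extracellular olfactomedin-domain protein, both peaks lay in the same long 3' untranslated exon, with midpoints 1205, 1260 and 1613 bp apart. In the other 6 genes they lay in separate exons. CSF1, the growth factor of macrophages, had a 2746 bp peak on coding exon 6 of 9 and a 1427 bp peak on the 3' untranslated region, both with a core. RASIP1, a Ras-interacting protein of endothelial cells, had peaks on exons 4 and 5 of 12, both with a core and the former also with an AP-1 site. KCP, a secreted regulator of BMP signalling, had peaks on exons 15 and 20 of 42 with neither site. HMGXB3 had peaks on exons 12 and 19 of 20, and TRAPPC6A, a subunit of a vesicle tethering complex, had one on exon 2 and one on the 3' untranslated part of exon 6.

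Among the 10 exon peaks listed first were those of DPF3, FNBP1, C19orf67, MERTK, BCAT2, RASGRF1, TRERF1, DEDD2 and CREB3L2. The DPF3 peak covered chr14:73082115-73082958 in the last of 11 exons, 20704 bp from the nearest TSS. The MERTK peak (chr2:112732607-112733150) was centred on exon 7 of 19, an exon of 184 bp that made up 33.8% of it. The CREB3L2 peak (chr7:137566814-137567553), in a gene for a membrane-bound bZIP factor, was on exon 11 of 12 and held an AP-1 site without a core. Of these 10 peaks 5 held a core and 3 an AP-1 site, DPF3 being the peak with both. The genes DPF3, FNBP1, MERTK, BCAT2, TRERF1 and DEDD2 also had a promoter peak.

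The widest exon peak was the 6465 bp peak of LYL1, a basic helix-loop-helix factor of blood cells (chr19:13208294-13214758). It was followed by TAS1R3, a taste receptor subunit (4893 bp), PRR7 (4225 bp), ZIC5 (4028 bp) and P2RY11, a receptor for ATP (3710 bp). None of these 5 genes had a promoter peak, counted by a midpoint within 500 bp of a TSS. The peaks of LYL1, TAS1R3 and ZIC5 nevertheless extended over the TSS of their own gene, which lay 2146, 1522 and 1525 bp from the midpoint. Of the 5 peaks, that of P2RY11 alone had a core in its central 200 bp. The exon peaks farthest from any TSS were narrower. That of CTNND2, a catenin of the nervous system, was 308 bp wide and 148001 bp away. Those of ASTN1 (80222 bp), PAX2 (79195 bp), PKD1L1 (54462 bp) and SLC9A9, a sodium and proton exchanger (48625 bp), followed, and none of the 5 genes had a promoter peak. All of these 5 stood after the first 13485 peaks of the list. Distances to a TSS ran from 1506 bp, with a median of 4983 bp. Just inside the limit were the peaks of POLM (1506 bp), OSBPL7 (1515 bp) and ST3GAL2 (1520 bp), and just outside it were those of NEU2 (1480 bp), VGF (1460 bp) and PAQR9 (1434 bp).

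A peak with its midpoint within 500 bp of a TSS of the host gene was present for 172 of the 319 hosts (53.9%, 48.4 to 59.3), as it was for 54.2% of all canonical protein-coding genes. Hosts of later-intron peaks had one in 58.9%. With genes that hosted both kinds left out, the shares were 117 of 237 (49.4%) and 746 of 1279 (58.3%), an odds ratio of 0.697 (0.528 to 0.920, Fisher's exact test, p = 0.0123, adjusted p = 0.0170). This call was lost when only the first 13485 peaks, only peaks up to 1000 bp wide or first-intron peaks were used (0.781 to 0.847, exact p = 0.200 to 0.397), and over 5000 bp from a TSS (0.680, exact p = 0.0560). A later-intron peak was also present in 82 of the hosts. For 115 of the 319 (36.1%, 31.0 to 41.5) the exon peak came with no promoter, first-intron or later-intron peak of the classes used here. Intron peaks nearer a TSS than the distance limit, or overlapping an H3K27Ac region, belong to none of these classes. The 115 genes may therefore hold other ETS1 peaks.

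Hosts in the gene families examined are given beside 319 of 19471 canonical genes (1.64%). Families with a host had shares from 1.72% to 3.70%, and the interval of every family, also of those without a host, held 1.64%. These counts are descriptions without a test. The ETS family had 1 host of 27 genes, SPI1, which encodes the myeloid factor PU.1. Its peak (chr11:47376529-47377462) was on the last exon of 5, was CpG-rich and held no core. The chromatin regulators had 1 host of 52, ARID1B. ARID1B is a subunit of the BAF complex, and its 424 bp peak was on coding exon 13 of 20 with a core. Laminins and integrins had 1 of 42, LAMA2, a basement membrane chain with a 369 bp peak and a core on exon 32 of 65.

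The genes named as C2H2 zinc finger proteins had 11 hosts of 639 (1.72%, 0.964 to 3.06), with PRDM7, ZBTB7B and KLF1 listed first. PRDM7 is a histone methyltransferase, ZBTB7B a factor of T cell commitment and KLF1 the erythroid member of the KLF family. The peaks of PRDM7 and ZBTB7B were in 3' untranslated regions with a core, and the 2493 bp peak of KLF1 was on coding exon 2, CpG-rich and without a core. No host was found among 16 AP-1 family genes, 33 drivers of head and neck carcinoma, 28 desmosome, plakin and squamous envelope genes, 63 protocadherins, 55 keratins or 44 collagens. By the limit of 3 counts these zeros allow shares of up to 18.8%, 9.09%, 10.7%, 4.76%, 5.45% and 6.82%. The 113 peaks left out for an H3K27Ac region lay in 105 genes, which included FOSL2, TP63, KRT7, COL23A1, KLF6, KLF13 and ZFP36L1 of these lists.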

How the data were processed

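The authors mapped ChIP-Seq reads to hg19 with Bowtie 1.1.1, left out reads with several loci, and derived the peaks from MACS2 calls over input by the IDR procedure across the 3 samples. They deposited 1 consensus list of chromosome, start and end, which holds no signal, so regions below the IDR threshold and poorly mappable sequence cannot be recognised. H3K27Ac regions of rank 1 to 1900 came from the authors' ranking. Exons, introns and TSSs came from GENCODE 44 on GRCh37 (253343 transcripts, 19478 canonical protein-coding ones with 19471 gene names). Midpoints were counted per Mb of sequence without gaps under the same rules. Densities were compared with an exact conditional test, paired windows with an exact McNemar test and classes with Fisher's exact test (odds ratio with a log-normal interval), all two-sided, with Benjamini-Hochberg adjustment and a threshold of 0.05. The members and gene lists were chosen with earlier results of these data known. Genes named were hosts of 2 peaks, the 10 listed first, the 5 widest, the 5 farthest from a TSS, list members (3 for a family) and those at the distance limit. The list genes whose exon peak was left out for a region were named after their values were seen. A few members that these rules select are not reported here. The alternatives are given in the closing section. The comparisons by GC content, by wholly exonic window and the 10 added ones were chosen after seeing the data. The code was tested on simulated data. Software was scipy 1.17.1, numpy 2.4.6, pysam 0.24.0, pandas 2.3.3, samtools 1.23.1 and matplotlib 3.10.9 under Python 3.11.15.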

Additional observations from a re-analysis of the deposited data

Results flagged for a closer look

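The contrast of exon peaks with windows of the same transcript differed between the 2 kinds of exon sequence in CpG-rich composition. Of the discordant pairs, the peak alone was CpG-rich in 13 of 34 (38.2%) in coding exons and in 16 of 19 (84.2%) in 3' untranslated regions (Fisher's exact test of the difference, adjusted p = 0.00392 over the 10 comparisons added after seeing the data). The windows of untranslated pairs were of lower GC content than those of coding pairs (medians 46.0% and 58.8%), and the part of base composition in this difference was not tested.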

How the results depend on the processing

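No paired analysis was possible because the list is 1 consensus of the 3 samples, and for the same reason no replicate could be left out. Of 101 alternative values, 72 had the same direction and stayed on the same side of the threshold or, for the count of exon peaks, stayed within 1.5 times it. The count of 328 exon peaks became 104 among the first 13485 of the list, 162 over 5000 bp from a TSS, 208 for peaks up to 1000 bp wide and 656 where 1 bp in an exon was enough. Among the first 13485, calls were lost for the core and AP-1 site against later-intron peaks (0.946 and 0.743), AP-1 against the same transcript (3) and the host promoter (0.781). Over 5000 bp from a TSS they were lost for the core against later-intron peaks (0.839), width (1.17) and host promoter (0.680), while the core against the same transcript was called (1.84) and the core strand turned to 1.21. For peaks up to 1000 bp wide the core against the same transcript was called (2.30), the host promoter was not (0.847), and the CpG ratio within transcripts (0.944) and core strand (1.13) turned. The core against the same transcript was also called with regions kept (1.52), with all transcripts (1.51), with 1 peak per gene (1.54) and with 600 bp windows (3.14), so that its call depended on these choices. It was not called within the same exon (1.35), with GGAA alone (1.23) or with wholly exonic peak windows (1.21). CpG-rich windows were called within the same exon (4.50) and with wholly exonic peak windows (4). With CCGGAA in place of the core the ratio against later-intron peaks turned to 1.65, and against first-intron peaks the host promoter was not called (0.828). At 50 to 60% GC the core (0.740), AP-1 site (0.794) and width (1.28) against later-intron peaks were not called, and coding against 3' untranslated density turned to 0.869. In each case the cause was not tested, except that alternatives with fewer peaks have wider intervals. Densities over sequence without repeats were to be tried and were not run, because the genome file marks no repeats. The authors state a range of reads per sample, but the depth of each single sample is not known here. A peak missed in a shallower library therefore cannot be told from one that is absent.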

Other observations

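The exon peaks were unevenly spread over chromosomes. Chromosome 19 held 42 of them (18.4 per Mb of eligible exon sequence, 13.3 to 24.9), chromosome 16 held 24 (17.0 per Mb, 10.9 to 25.3) and chromosome 14 held 18 (12.5 per Mb, 7.42 to 19.8), beside 7.29 per Mb over all chromosomes. Chromosome X had none in 1.90 Mb, which by the limit of 3 counts allows up to 1.58 per Mb, although 400 peaks of the whole list and 19 later-intron peaks lay on it. Of the 328 exon peaks, 9 had an H3K27Ac region of rank 1 to 1900 within 10000 bp, and 86 had another ETS1 peak within 5000 bp. The rule itself had left out peaks that overlapped such a region, and neither count was set beside that of other peaks. These are values without a test, and gene density and GC content differ between chromosomes.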
